A study of Mus musculus with 12 samples.

Results

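The 8 genes described here encode checkpoint and costimulatory proteins, with which cells of the immune system hold back or support T cells and each other: *Cd274* (PD-L1), *Pdcd1lg2* (PD-L2), *Cd80*, *Cd86*, *Cd40*, *Cd276* (B7-H3), *Havcr2* (TIM-3) and *Vsir* (VISTA). They were chosen by name, with earlier results of these data known, and each symbol matched 1 Ensembl identifier among the 55487 genes of the deposited table. RNA-seq was performed on 12 libraries of microglia, the resident macrophages of the brain, sorted from mice of the YARG strain at postnatal day 13, with the tissue labelled as BF/striatum of the brain (BF, basal forebrain). In these mice yellow fluorescent protein (YFP) is made where the *Arg1* locus is active, and animals of every group carried the reporter, without any treatment. ARG1+ microglia were sorted as positive for YFP and CX3CR1 and negative for CD206, and ARG1- microglia in the same way but negative for YFP, with 3 libraries from females and 3 from males of each population. According to the study's methods each library came from pooled brains of a given sex and the replicates were litters, but the labels do not tie an ARG1+ library to the ARG1- library of its litter. Libraries are named below by the numbers in their labels, which are 1, 2 and 13 for ARG1- females, 7, 8 and 15 for ARG1+ females, 5, 6 and 14 for ARG1- males, and 11, 12 and 16 for ARG1+ males.

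T cells that meet their antigen need a costimulatory signal in addition, and CD80 and CD86 on the presenting cell give it through CD28, while CTLA-4 competes for the same ligands. PD-L1 and PD-L2 bind the receptor PD-1 and dampen the T cell, VISTA is an inhibitory relative of the B7 family that is abundant on myeloid cells, and the function of B7-H3 is less settled. CD40 is a receptor of the TNF family through which T cells activate presenting cells, and TIM-3 is an inhibitory receptor of exhausted T cells and of myeloid cells, microglia included, with galectin-9 among its ligands.

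*Cd274* and *Havcr2* were the members whose transcripts were higher in ARG1+ microglia in a comparison below, and their promoters are shown to let short motifs be read beside the expression values. The sequences are those of RefSeq on GRCm38.p6, plus strand, from 250 bases before to 50 bases after the annotated start, at chr19:29367188-29367487 for *Cd274* and chr11:46454681-46454980 for *Havcr2*, and capitals mark the motif matches.
Cd274: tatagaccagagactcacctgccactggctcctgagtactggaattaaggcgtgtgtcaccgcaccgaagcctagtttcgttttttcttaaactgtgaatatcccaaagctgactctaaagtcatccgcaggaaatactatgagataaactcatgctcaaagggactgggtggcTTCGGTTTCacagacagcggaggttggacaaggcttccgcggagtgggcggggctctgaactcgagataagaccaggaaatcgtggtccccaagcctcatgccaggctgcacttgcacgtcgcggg
Havcr2: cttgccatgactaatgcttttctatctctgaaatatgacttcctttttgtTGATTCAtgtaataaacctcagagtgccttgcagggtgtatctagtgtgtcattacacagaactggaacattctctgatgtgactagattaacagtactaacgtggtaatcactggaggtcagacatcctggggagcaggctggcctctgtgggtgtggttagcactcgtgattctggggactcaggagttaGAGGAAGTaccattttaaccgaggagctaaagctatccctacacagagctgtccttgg
On both strands, 4 motifs were searched, and no matches overlapped each other in these windows. The letters GAAANNGAA, bound by interferon regulatory factors, were found in the *Cd274* window, 76 bases before the start (position -76), and in 8.56% of the 32851 promoters of that length. The letters GAGGAAGT, bound by PU.1, the myeloid lineage factor, were found in the *Havcr2* window at position -8 and in 3.2% of all promoters. TGANTCA, bound by AP-1, was at position -200 of *Havcr2* and -42 of *Cd80* and in 7.81% of all promoters, whereas TTCNNNGAA, the interferon-gamma activated site, was in no member's window and in 8.3% of all promoters. RefSeq promoters were found for 6 of the 8 members, of which *Pdcd1lg2*, *Cd276* and *Vsir* held none of these motifs, and *Cd86* and *Cd40* were not matched. A match says only that these letters are present.

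Total counts lay between 28356659 and 60625170 per library, and levels are given as CPM, counts relative to the library total after TMM normalisation, with 3 counts in a library (0.0511 to 0.102 CPM) taken as the limit below which a gene is read as absent. *Arg1* itself had 0 counts in all 6 ARG1- libraries and in 4 of the 6 ARG1+ libraries, with 2 counts in ARG1+ female 8 and 52 in ARG1+ female 15, so the populations below are those of the YFP sort and were not separated by *Arg1* reads. The study reported from quantitative PCR of sorted cells that *Arg1* expression was limited to the YFP-positive population. It also reported ARG1 and YFP protein in the same cells by immunohistochemistry. All 6 microglial markers checked were present in every library at a summed 42615 to 69688 CPM. Of these markers *P2ry12* (log2 fold change of -0.55, adjusted p = 0.00243) and *Tmem119* (-0.77, adjusted p = 0.00109) were lower and *Sall1* (0.43, adjusted p = 0.0239) was higher in ARG1+ microglia. The T cell markers *Cd3e*, *Cd3d*, *Cd3g*, *Cd4* and *Cd8a* were at 0 in all libraries and the 8 T cell markers summed to at most 0.661 CPM, *Chil3* of monocytes and *Cldn5* of endothelial cells were at 0, and the 7 dendritic cell markers summed to between 11.2 and 34.8 CPM with none called. The 7 markers of border macrophages summed to 106 to 237 CPM, mostly from *Mrc1*, which encodes CD206 (121 CPM in ARG1- and 147 CPM in ARG1+ microglia, adjusted p = 0.371). The 4 neutrophil markers summed to at most 2.04 CPM, with *Ly6g* and *Retnlg* at 0 and *S100a8* and *S100a9* seen in ARG1- libraries only. The remaining lists were at 1.89 to 14.1 CPM for monocytes, 0.919 to 9.69 for neurons, 2.19 to 26.1 for astrocytes, 37.2 to 122 for oligodendrocytes and 29.8 to 83.5 for endothelial cells, and *Plac8* of the monocyte list fell in ARG1+ microglia (log2 fold change of -2.38, adjusted p = 0.00466). The B cell list ran from 56.6 to 178 CPM almost wholly through *Cd79b*, which fell in ARG1+ microglia by 1.09 on the log2 scale (adjusted p = 0.000468). The part of these markers in the results below was not tested.

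In the comparison of ARG1+ with ARG1- microglia over both sexes, *Havcr2* was higher and *Vsir* lower in ARG1+ microglia, *Cd86* was lower in every ARG1+ library but missed the threshold, and *Cd80*, *Cd276* and *Cd40* did not pass the test. *Cd274* was higher in ARG1+ microglia of females by 429-fold in summed counts and did not pass the test in males. That ratio rests on 5 counts in the ARG1- females, all in library 13. By edgeR neither the difference between the sexes (adjusted p = 0.146) nor the comparison over both sexes (adjusted p = 0.222) was called for *Cd274*. With edgeR's quasi-likelihood test and sex as a second term, 2 of the 7 members with enough counts to be tested were called at an adjusted p under 0.05, 1 higher and 1 lower, against 15.9% of all 16908 genes tested, of which 6.44% were higher and 9.42% lower. The median log2 fold change was 0.21 over the 7 members and 0.06 over all genes tested. The 6 ARG1+ libraries did not overlap the 6 ARG1- libraries for 3 of the 8 members, *Havcr2*, *Vsir* and *Cd86*, and for 10% of the genes tested. In libraries of bulk RNA, fewer cells that express a gene and less RNA of it per cell cannot be told apart. The number of calls rested in part on the method, since DESeq2 called 3 members, and 22.7% of the genes to which it gave an adjusted p.

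**Figure D1:**
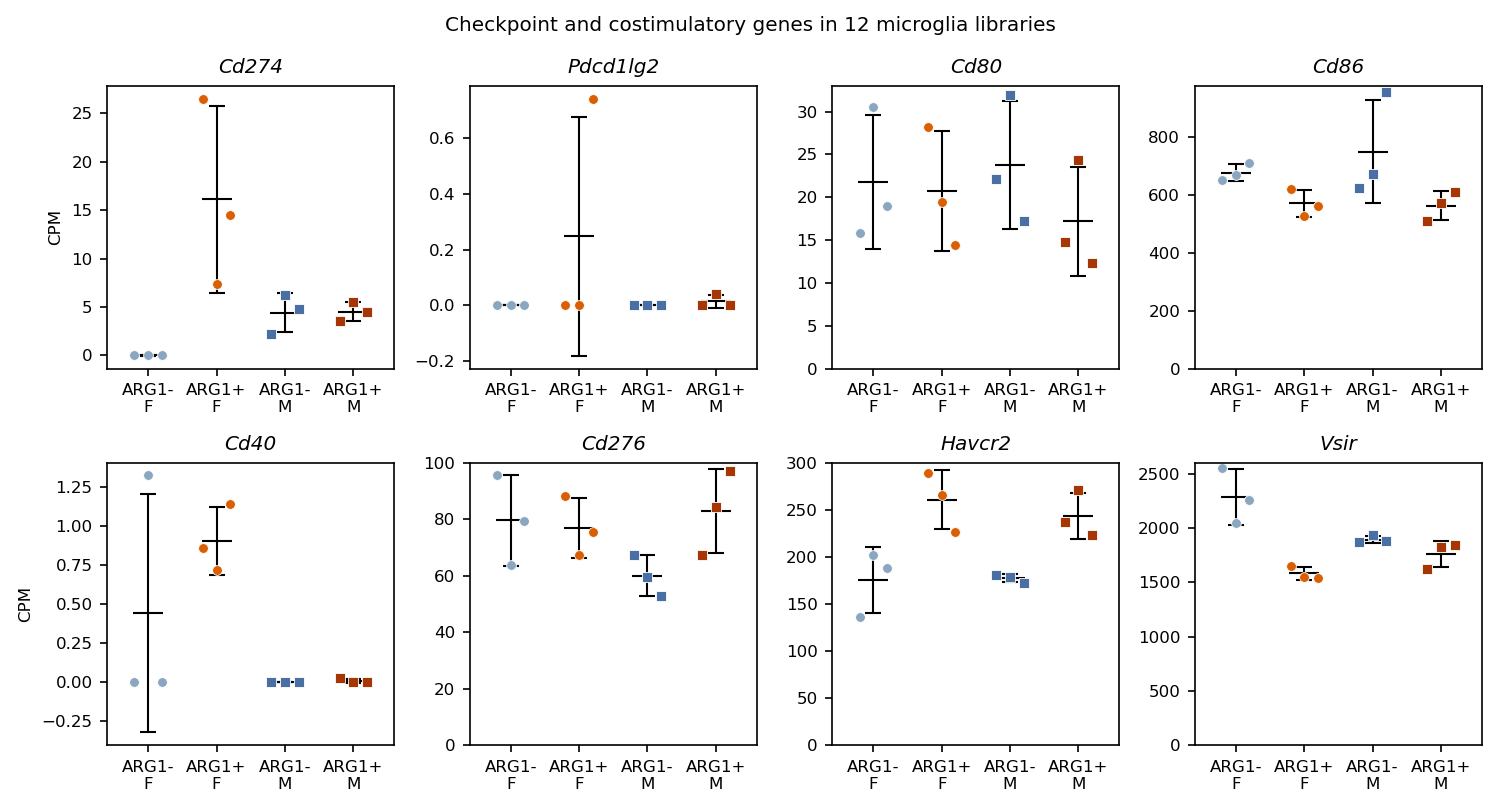
Level of each of the 8 genes in the 12 libraries, in CPM on a linear axis with its own range for each gene, by population and sex (F, female; M, male). Points are libraries, and bars give the mean and SD of 3 libraries (they can reach below 0 where a level is near 0). *Cd274* was near 0 in ARG1- females only, *Havcr2* was higher and *Vsir* and *Cd86* were lower in all ARG1+ libraries, and *Pdcd1lg2* and *Cd40* were at 0 in most libraries.

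*Cd274* (ENSMUSG00000016496), the gene of PD-L1, lies at chr19:29367455-29388095 on the plus strand of GRCm38 with 3622 bases of exon. In ARG1- females it had 0, 0 and 5 counts (0, 0 and 0.0852 CPM in libraries 1, 2 and 13). In ARG1+ females it had 835, 217 and 509 counts, or 26.5, 7.38 and 14.5 CPM in libraries 7, 8 and 15. All 3 ARG1+ female libraries were therefore far above all 3 ARG1- female libraries, and among themselves library 7 was the highest and library 8 the lowest. In males the levels were 2.25, 6.19 and 4.80 CPM in ARG1- libraries 5, 6 and 14 and 3.57, 5.52 and 4.47 CPM in ARG1+ libraries 11, 12 and 16. The populations of males overlapped, and every male library lay above the ARG1- females and below the ARG1+ females.

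Within females the difference passed edgeR's test (fitted log2 fold change of 8.75, SE 1.03, adjusted p = 0.00348), and *Cd274* had the rank 16 by p among all genes tested. In females 2 of the 7 members were called, *Cd274* and *Vsir*, and 6.76% of all genes, while DESeq2 called *Havcr2* as well and 14.3% of genes. The summed counts per normalised total were 429 times as high in ARG1+ as in ARG1- females (95% exact interval 184 to 1324, for counting error only). Within males the log2 fold change was 0.04 (SE 0.70, adjusted p = 0.983), and the ratio of summed counts was 1.07 (0.943 to 1.22). Males called 5.13% of all genes and 0 of the 7 members, with 3 (*Cd276*, *Cd86* and *Havcr2*) and 22.8% of all genes at an unadjusted p under 0.05. DESeq2 called 1 member, *Havcr2*, and 13.9% of genes there. Over both sexes the fitted log2 fold change of *Cd274* was 3.78 (SE 1.94, adjusted p = 0.222 by edgeR, 0.00621 by DESeq2). The call in females held when any of the 12 libraries was left out, with an adjusted p of at most 0.0189. The size of the difference rested on ARG1- female 13, which held all 5 counts of its group. Without it the fitted log2 fold change was 12.18, which depends on the prior count, and ARG1+ females were at least 195.5-fold higher than ARG1- females set at the limit of 3 counts each. The study's lists of raised genes, made from these same samples, hold *Cd274*, so its direction here is not independent evidence.

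The difference between the sexes in the ARG1 effect was tested as an interaction, and *Cd274* had the smallest p of all 16908 genes (log2 difference of 8.71, SE 1.21), which did not pass adjustment (adjusted p = 0.146). By edgeR's adjusted p the interaction called 0.0% of all genes and 0 members, against 9.32% of genes and 2 members (*Cd274* and *Vsir*) at an unadjusted p under 0.05, while DESeq2 called 214 genes (1.28%) and 1 member, *Cd274* (adjusted p = 1.26e-11). Leaving out 1 library gave *Cd274* an adjusted p from 0.0417 to 0.532, under 0.05 without ARG1- male 5 (0.0417) and without ARG1- female 13 (0.0467). In ARG1- microglia *Cd274* was lower in females than in males (fitted log2 difference of -6.88, SE 0.98, adjusted p = 0.0245), the only member among the 0.0946% of genes called there. The ratio of summed counts, males over females, was 112 (95% exact interval 47.8 to 348, for counting error only), and without ARG1- female 13 it was at least 53.5. This call was lost when any of 8 libraries was left out, ARG1- females 1 (adjusted p = 0.0821) and 2 (0.0576), ARG1- male 6 (0.0510), ARG1+ females 7 (0.0582) and 15 (0.0655) and ARG1+ males 11 (0.0693), 12 (0.0623) and 16 (0.0678). It held without the other 4, with a lowest adjusted p of 0.0174. DESeq2 called 325 genes between the sexes in ARG1- microglia, against 16 by edgeR, and *Cd274* was again the only member. In ARG1+ microglia the level was 3.57 times as high in females as in males by summed counts (3.24 to 3.93, for counting error only). In the fit, which takes in the spread between libraries, it was 1.83 on the log2 scale (SE 0.72, adjusted p = 1). Among ARG1+ libraries 0.0355% of genes differed between the sexes and 0 members did by either tool, with 0.221% of genes by DESeq2, and 2 members (*Cd274* and *Cd40*) and 3.12% of genes were at an unadjusted p under 0.05.

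The antisense gene *AC119228.1* lies inside *Cd274* on the other strand and shares 511 exon bases, 14.1% of the *Cd274* exons. The study's methods describe no step that keeps the strand, and the setting for strand in the counting is not given in the sources used here. Reads of the shared bases therefore cannot be told apart between the genes. Whether the other reads given to *AC119228.1* come from its own strand was not tested. *AC119228.1* had 511 counts in all, equal to 19.9% of the 2569 of *Cd274*. It was at 0 in the 3 ARG1- females, at 174, 40 and 115 counts in ARG1+ females 7, 8 and 15, at 10 to 40 in ARG1- males and at 22 to 51 in ARG1+ males. Its mean was highest in ARG1+ females, as for *Cd274*, and in males it was 0.860 CPM in ARG1- and 0.771 CPM in ARG1+ libraries. Across the 12 libraries it was the gene most like *Cd274* (Pearson's r of log2 CPM 0.98, among 13170 genes with a mean of at least 1 CPM), beside the bases they share. The next were *Uhrf2* (r = 0.94), the gene of a ubiquitin ligase that binds modified DNA, and the long noncoding RNA *Gm49797* (r = 0.94) on chromosome 17. Like *Cd274*, which ends at 29388095, *Uhrf2* lies on chromosome 19, at 30030513 to 30093722. The part of this nearness in their likeness was not tested. *Uhrf2* had 57.2, 53.4 and 64.0 CPM in ARG1- females and 73.9 to 91.4 CPM in the other 9 libraries, a smaller range than that of *Cd274*.

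*Pdcd1lg2* (ENSMUSG00000016498, chr19:29410919-29471161, plus strand), the gene of PD-L2, follows *Cd274* on chromosome 19. It had 26 counts (0.740 CPM) in ARG1+ female 15, 2 counts in ARG1+ male 12 and 0 in the other 10 libraries, so that 1 library was above the limit of 3 counts. It was too low for the count filter, and an exact permutation test of its CPM within the sexes over 400 arrangements cannot give a p below 0.5 with these values, so no difference could be tested. ARG1+ female 15 was also the library with the most *Arg1* counts (52), and *Arg1* was set beside *Pdcd1lg2* after their values were seen.

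*Cd80* and *Cd86* encode the ligands of CD28 and lie on chromosome 16, *Cd80* (ENSMUSG00000075122) at 38455561 to 38496335 and *Cd86* (ENSMUSG00000022901) at 36603869 to 36666081 on the minus strand. *Cd86* was at 653, 671 and 710 CPM in ARG1- females and at 624, 673 and 956 CPM in ARG1- males 5, 6 and 14. In ARG1+ microglia it was at 623, 529 and 562 CPM in females 7, 8 and 15 and at 511, 572 and 610 CPM in males 11, 12 and 16. All 6 ARG1+ libraries were below all 6 ARG1- libraries, although the highest of them, ARG1+ female 7 at 623.0, was only just below ARG1- male 5 at 624.1. The means were 714 ± 122 and 567.9 ± 43.8 CPM (SD, n = 6), a difference of -0.33 on the log2 scale (SE 0.11) that edgeR's test did not call (adjusted p = 0.0550). It was called without ARG1- male 5 (adjusted p = 0.0420), with ARG1 status alone in the fit (0.0428) and with a term for the libraries numbered 13 to 16 (0.0424), and reached 0.137 in other fits. The size of the difference rested in part on ARG1- male 14, the highest library, without which the log2 fold change was -0.20 (adjusted p = 0.0858 by edgeR).

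*Cd80* was between 15.8 and 31.9 CPM in ARG1- microglia (mean 22.8 ± 6.92, SD, n = 6) and between 12.4 and 28.2 CPM in ARG1+ microglia (18.9 ± 6.27), and the populations overlapped. Its log2 fold change was -0.27 (SE 0.26, adjusted p = 0.540 by edgeR). The females, with means of 21.8 ± 7.79 and 20.7 ± 6.98 CPM in ARG1- and ARG1+ microglia, differed by less than the males, with 23.8 ± 7.50 and 17.2 ± 6.34 CPM (SD, n = 3), and the difference between the sexes had an adjusted p of 0.913. *Cd80* varied by more than *Cd86* relative to its mean in both populations.

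*Cd40* (ENSMUSG00000017652, chr2:165055627-165072948, plus strand) had 53 counts (1.32 CPM) in ARG1- female 2 and 0 in the other 5 ARG1- libraries. It had 27, 21 and 40 counts (0.856, 0.715 and 1.14 CPM) in ARG1+ females 7, 8 and 15, 1 count in ARG1+ male 11 and 0 in ARG1+ males 12 and 16. Transcripts above the limit of 3 counts were thus seen in 4 of the 6 female libraries and in 0 of the 6 male libraries. *Cd40* passed the filter on low counts through the ARG1+ females, and its log2 fold change of 1.19 (SE 1.31, adjusted p = 0.601 by edgeR) rested on ARG1- female 2, without which it was 6.19 (adjusted p = 0.0422). Females against males did not pass adjustment in ARG1- (adjusted p = 0.460) or ARG1+ microglia (adjusted p = 1), and both had an unadjusted p under 0.05.

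*Cd276* (ENSMUSG00000035914, chr9:58524298-58555437, minus strand), the gene of B7-H3, was at 95.6, 63.6 and 79.3 CPM in ARG1- females 1, 2 and 13 and at 88.1, 67.1 and 75.5 CPM in ARG1+ females 7, 8 and 15. In males it was at 67.3, 59.5 and 52.9 CPM in ARG1- libraries 5, 6 and 14 and at 67.3, 84.3 and 97.0 CPM in ARG1+ libraries 11, 12 and 16. The populations overlapped in females, and in males ARG1+ library 11 (67.287 CPM) lay just below ARG1- library 5 (67.294 CPM) while the other ARG1+ libraries were above all ARG1- libraries. Over both sexes the log2 fold change was 0.21 (SE 0.15, adjusted p = 0.402 by edgeR), and in males it was 0.47 (SE 0.19, adjusted p = 0.179). The gene model *Gm10657* shares 416 exon bases with *Cd276* on the opposite strand (11.4%) and held 632 counts beside the 34156 of *Cd276*.

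*Havcr2* (ENSMUSG00000020399, chr11:46454935-46481255, plus strand, with 2721 bases of exon) encodes TIM-3. It was at 136, 202 and 189 CPM in ARG1- females 1, 2 and 13 and at 180, 179 and 173 CPM in ARG1- males 5, 6 and 14. In ARG1+ microglia it was at 289, 266 and 227 CPM in females 7, 8 and 15 and at 237, 271 and 223 CPM in males 11, 12 and 16. Every ARG1+ library was above every ARG1- library, and the ARG1- males were closer to each other than the libraries of any other group. The means were 176 ± 22.3 and 252 ± 27.0 CPM (SD, n = 6), a 1.43-fold increase (log2 fold change of 0.52, SE 0.11, adjusted p = 0.00791 by edgeR). The call held in all 12 fits without 1 library (adjusted p of 0.00801 to 0.0185) and in the 6 alternative fits (2.23e-05 to 0.0110). Within the sexes, at 3 libraries a group, the log2 fold change was 0.57 in females (adjusted p = 0.0516) and 0.46 in males (adjusted p = 0.109). In females *Havcr2* was called with DESeq2 size factors (adjusted p = 0.0381), with at least 10 counts in every library (0.0213), by DESeq2 (0.00176), and without ARG1- male 14 (0.0478) or ARG1+ male 12 (0.0493), and in males by DESeq2 (0.0294). The effects in the sexes did not differ beyond their error (log2 difference of 0.11, SE 0.22, adjusted p = 0.959).

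The genes most like *Havcr2* over the 12 libraries were the processed pseudogene *Gm3791* (r = 0.95), the antisense gene *Gm29439* (r = 0.94) and *Vps54* (r = 0.94), whose protein belongs to a complex that tethers vesicles to the Golgi apparatus. *Gm3791* had 9.24 ± 3.98 CPM in ARG1- and 34.1 ± 8.37 CPM in ARG1+ microglia (SD, n = 6), and its populations did not overlap. It was picked for its likeness to *Havcr2* in these same libraries, so this separation is not independent evidence. A processed pseudogene can share reads with its parent gene, which the counts do not resolve.

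*Vsir* (ENSMUSG00000020101, chr10:60346851-60372684, plus strand, with 5014 bases of exon) encodes VISTA and was the most abundant of the 8 genes. It was at 2553, 2043 and 2256 CPM in ARG1- females 1, 2 and 13 and at 1869, 1933 and 1880.5 CPM in ARG1- males 5, 6 and 14. In ARG1+ microglia it was at 1654, 1552 and 1539 CPM in females 7, 8 and 15 and at 1621, 1821 and 1845 CPM in males 11, 12 and 16. All ARG1+ libraries were below all ARG1- libraries, by a wide gap in females and a narrow gap in males. The means were 2089 ± 269 and 1672 ± 132 CPM (SD, n = 6), and *Vsir* fell by 0.32 on the log2 scale (SE 0.09, adjusted p = 0.0324 by edgeR).

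Within females *Vsir* was 2284 ± 256 CPM in ARG1- and 1582 ± 62.8 CPM in ARG1+ microglia (SD, n = 3; log2 fold change of -0.53, SE 0.09, adjusted p = 0.0119 by edgeR), and within males 1894 ± 34.1 and 1762 ± 123 CPM (log2 fold change of -0.10, SE 0.09, adjusted p = 0.565). Between the sexes this effect differed by a log2 value of -0.43 (SE 0.13), which did not pass adjustment (adjusted p = 0.465). The call over both sexes was lost without ARG1- female 2 (adjusted p = 0.0547) or 13 (0.0696), ARG1+ female 7 (0.0877), 8 (0.0932) or 15 (0.0862), ARG1+ male 11 (0.0556), or with no filter on low counts (0.103). The call in females was lost without ARG1+ female 7 (0.0686) or 8 (0.0663). *Vsir* lies within *Cdh23*, a cadherin gene on the opposite strand that shares no exon bases with it, held 3.46% as many counts and was higher in ARG1+ microglia (log2 fold change of 0.81, adjusted p = 0.0235).

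**Figure D2:**
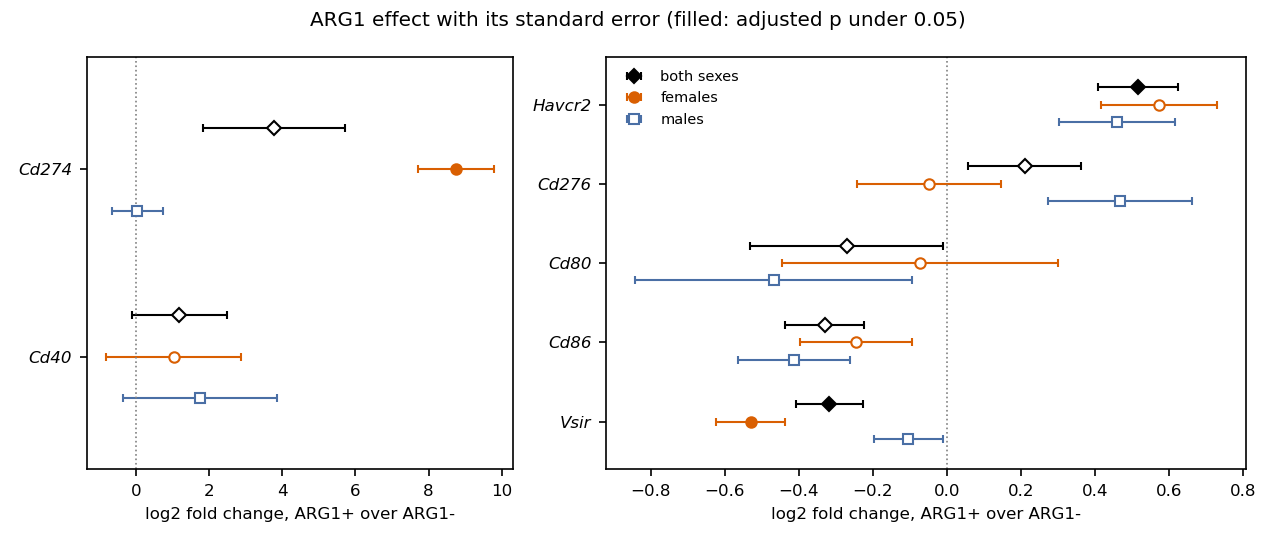
Log2 fold change of ARG1+ over ARG1- microglia with its standard error for the 7 members tested, over both sexes (diamonds), in females (circles) and in males (squares), on separate scales for *Cd274* and *Cd40* and for the other 5 genes. Filled symbols passed an adjusted p of 0.05, which *Havcr2* did over both sexes (0.52), *Vsir* over both sexes and in females (-0.32 and -0.53) and *Cd274* in females (8.75).

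Per kilobase of exon, the order of mean levels in ARG1- microglia was *Vsir* (417 CPM per kb), *Cd86* (195), *Havcr2* (64.8), *Cd276* (19.1), *Cd80* (6.15), *Cd274* (0.613), *Cd40* (0.0647) and *Pdcd1lg2* (0). From *Vsir* to *Cd80*, every library of a gene was above every library of the gene after it, *Cd274* included. *Cd274*, *Cd40* and *Pdcd1lg2* overlapped at 0 and cannot be ranked at this depth, and in ARG1- females the mean was lower for *Cd274* (0.00784 CPM per kb) than for *Cd40* (0.129, from library 2 alone). In ARG1+ microglia the order was the same, at 333 CPM per kb for *Vsir*, 155 for *Cd86*, 92.7 for *Havcr2*, 21.8 for *Cd276*, 5.11 for *Cd80*, 2.85 for *Cd274*, 0.134 for *Cd40* and 0.0665 for *Pdcd1lg2*. There *Cd80* and *Cd274* overlapped, since ARG1+ female 7 had 7.31 CPM per kb of *Cd274*, and every library had more *Cd274* than any had *Cd40*.

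**Figure D3:**
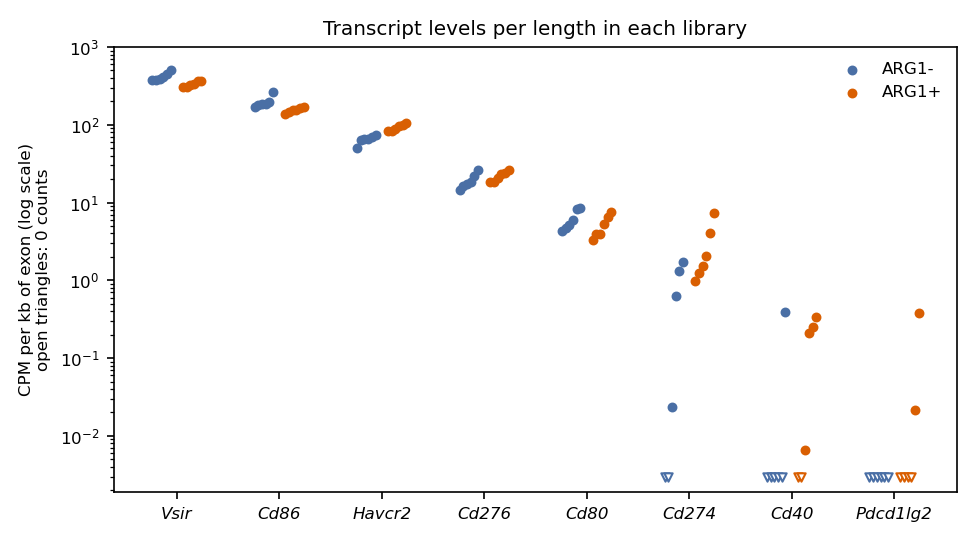
Level of each gene per kilobase of exon on a log scale in the 6 ARG1- and 6 ARG1+ libraries, in the order of the means in ARG1- microglia, with libraries of 0 counts as open triangles at the bottom. The genes span from 417 CPM per kb for *Vsir* to 0 for *Pdcd1lg2* in ARG1- microglia, and *Cd274* is the gene with the widest spread among those seen in ARG1+ libraries throughout.

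Genes known to act with the members were read in 6 lists. Beside the calls in each list below, 6.44% of all 16908 genes tested were called higher and 9.42% lower. Of 14 genes of receptors on T cells, 7 were tested and 2 were called higher in ARG1+ microglia, *Cd28* and *Cd27*. The median log2 fold change over those tested, 0.98 against 0.06 over all genes, was the fitted value of *Tnfrsf18* (SE 3.11), a gene near 0 whose mean was lower in ARG1+ (0.256 CPM) than in ARG1- microglia (0.552 CPM), so the median gives no direction for the list. *Cd28*, the receptor of CD80 and CD86, was at 0 counts in all 6 ARG1- libraries and between 0 and 1.65 CPM in ARG1+ libraries, which is at least 9.51-fold higher than ARG1- libraries set at the limit of 3 counts each (adjusted p = 0.0366 by edgeR), and it passed the count filter only through ARG1+ libraries. *Cd27*, a costimulatory receptor of the TNF family, rose from 0.211 ± 0.0644 to 0.928 ± 0.407 CPM (SD, n = 6; adjusted p = 0.0199 by edgeR). In ARG1- libraries *Cd27* reached at most 15 counts and 0.291 CPM, and it passed the count filter through ARG1+ libraries. The call for *Cd28* was lost when any of 9 libraries was left out (adjusted p up to 0.0804, without ARG1+ male 16). It was also lost with a term for the libraries numbered 13 to 16 (0.0561). The call for *Cd27* was lost when any of 3 libraries was left out (up to 0.0639, without ARG1+ male 12). With no filter on low counts *Cd27* was not called either (0.0715). *Pdcd1*, the gene of PD-1, was at 3.14 ± 2.71 CPM in ARG1- and 3.77 ± 0.492 CPM in ARG1+ microglia (adjusted p = 0.849 by edgeR), and *Ctla4* and *Cd40lg* were at 0 in all libraries. The T cell markers summed to at most 0.661 CPM, while *Cd28* and *Cd27* were themselves near 0. Mean levels in ARG1- and ARG1+ microglia were 0.0273 and 0.161 CPM for *Lck*, 0 and 0.0759 for *Cd2*, and 0.110 and 0.00567 for *Trac*. The part of T cells in the values of *Cd28* and *Cd27* was not tested.

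Of 15 other ligands on presenting cells, 7 were tested, 0 rose and 1 fell, with a median log2 fold change of 0.06. The gene that fell was *Nectin2*, whose protein binds TIGIT and CD226, from 95.4 ± 11.8 to 67.7 ± 9.70 CPM (SD, n = 6; log2 fold change of -0.50, adjusted p = 0.0165 by edgeR). Its call was lost without either of 2 libraries (adjusted p up to 0.0538, without ARG1+ female 7). Of 7 ligands and partners of TIM-3, 5 were tested, 0 rose and 2 fell, with a median of -0.18. *Lgals9*, the gene of galectin-9, fell from 637 ± 79.0 to 419 ± 65.7 CPM (log2 fold change of -0.60, adjusted p = 0.00544), while *Havcr2* rose. *Hmgb1*, which encodes a nuclear protein that TIM-3 binds when it is released, fell from 229 ± 36.5 to 140 ± 14.8 CPM (log2 fold change of -0.71, adjusted p = 0.00275). Both populations were apart for both genes, and both calls held in all 12 fits without 1 library.

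Of 12 genes of CD40 signalling, 11 were tested and 0 were called by edgeR, against 1 at an unadjusted p under 0.05 and 1 by DESeq2, with a median log2 fold change of 0.04. The most abundant, *Nfkb1*, a subunit of NF-κB, was at 216 ± 34.6 and 167 ± 18.6 CPM in ARG1- and ARG1+ microglia (SD, n = 6; log2 fold change of -0.37, adjusted p = 0.0613, and 0.0420 by DESeq2). It was called without ARG1- female 13 (adjusted p = 0.0376) or ARG1- male 5 (0.0433). Of 12 genes of the interferon-gamma route and of PD-L1 stability, all 12 were tested, 1 rose and 1 fell, with a median of 0.11. *Hif1a*, the hypoxia factor, rose from 140 ± 25.6 to 212 ± 34.4 CPM (log2 fold change of 0.60, adjusted p = 0.0181), and the call held in all 12 fits without 1 library. *Ifngr2*, a chain of the interferon-gamma receptor, fell from 309 ± 32.8 to 249 ± 15.04 CPM (log2 fold change of -0.31, adjusted p = 0.0267), and this call was lost with any of 8 libraries left out (up to 0.0993, without ARG1+ female 7).

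Of 14 other inhibitory receptors and ligands of myeloid cells, 13 were tested, with a median log2 fold change of 0.18. Of these 2 rose and 4 fell, against 6.44% and 9.42% of all genes tested. *Lilrb4a*, an inhibitory receptor of the leukocyte immunoglobulin-like family, rose from 2.74 ± 1.84 to 14.6 ± 4.96 CPM (SD, n = 6; log2 fold change of 2.41, adjusted p = 0.0272 by edgeR). *Lair1*, a receptor for collagen, fell from 866 ± 80.2 to 691 ± 76.9 CPM (-0.33, adjusted p = 0.0233), *Cd300a*, a receptor for phosphatidylserine, from 360 ± 26.8 to 293 ± 21.2 CPM (-0.30, adjusted p = 0.0237), and *Pilra* from 28.4 ± 4.88 to 17.7 ± 3.86 CPM (-0.68, adjusted p = 0.0218). The others called were *Cd33*, which rose, and *Siglece*, which fell, both of the Siglec family. With 1 library left out, *Lilrb4a* lost its call in 4 fits (adjusted p up to 0.0644, without ARG1+ female 8), *Lair1* in 8 (up to 0.0689, without ARG1+ male 12), *Cd300a* in 5 (up to 0.0813, without ARG1+ female 8) and *Pilra* in 5 (up to 0.0751, without ARG1+ male 16).

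**Figure D4:**
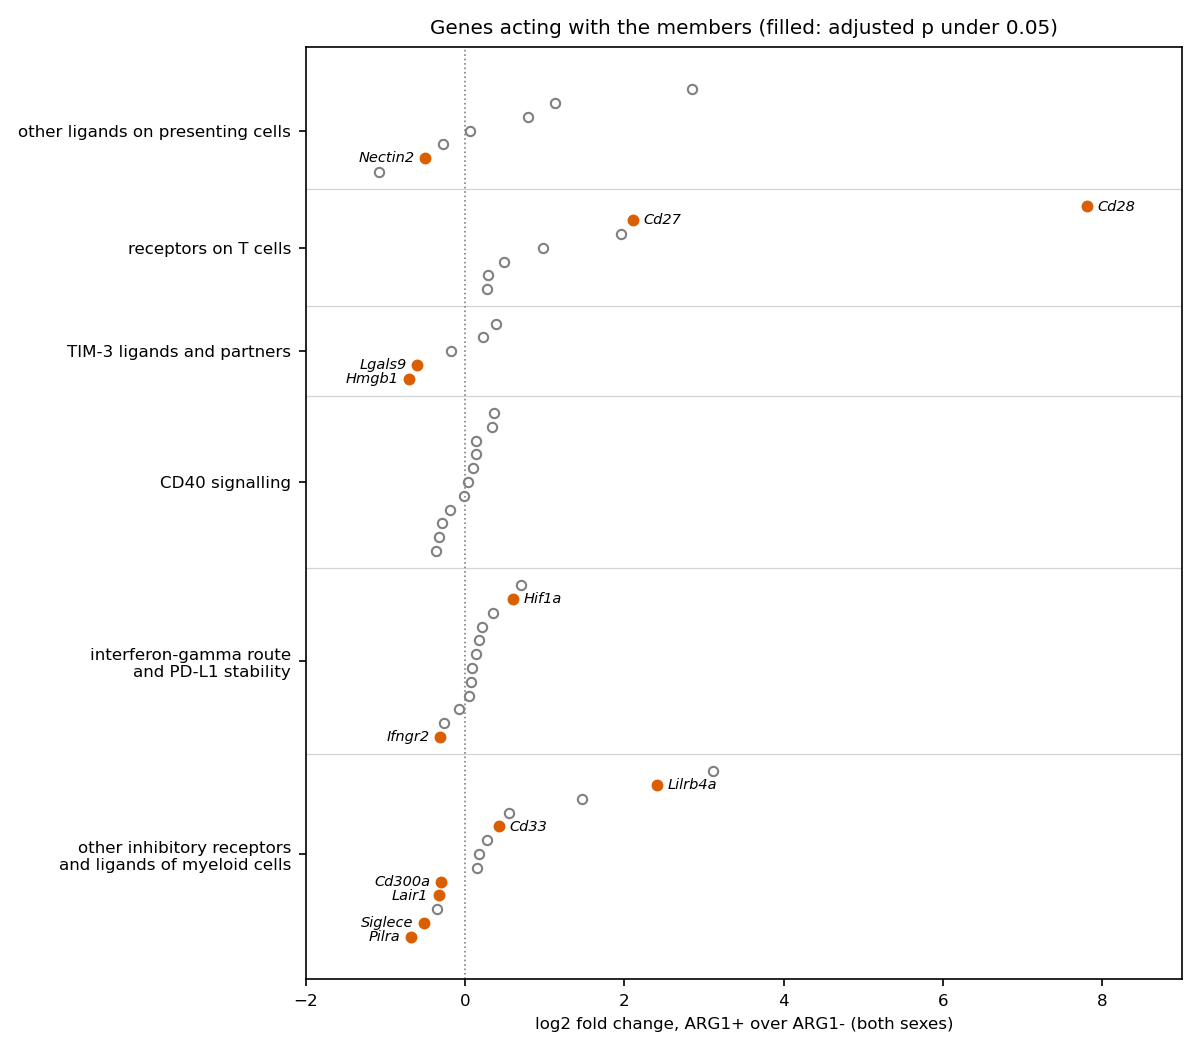
Log2 fold change of ARG1+ over ARG1- microglia over both sexes for the genes tested in the 6 lists, 1 point a gene and ordered by value within a list. Filled and named points passed an adjusted p of 0.05. From top to bottom the lists held 7, 7, 5, 11, 12 and 13 genes tested. Over all lists 5 were called higher and 8 lower, and of all genes tested 6.44% were called higher and 9.42% lower. *Cd28* and *Cd27*, among those called higher, passed the count filter through ARG1+ libraries. The fitted value of *Cd28* depends on the prior count because ARG1- libraries were at 0.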

How the data were processed

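RNA of microglia sorted from P13 YARG mice was measured in 12 libraries. According to the study's methods, the authors amplified RNA with SMART-Seq v4, made Nextera XT libraries and sequenced single-end reads, which they aligned to GRCm38 with STAR 2.6.1d and counted per gene with featureCounts 1.5.1. The annotation release and the setting for strand are not given in the sources used here. The deposited values are raw counts per Ensembl gene, without normalization, and 0 columns were left unused. Symbols and positions were taken from GENCODE M21 on GRCm38 (55227 of 55487 identifiers matched).

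From these counts, edgeR 4.0.16 in R 4.3.3 was used to keep genes by filterByExpr on the 4 groups (16908 genes), to scale libraries by TMM and to run its quasi-likelihood test, and p values were adjusted by Benjamini and Hochberg's method over all genes tested, with a limit of 0.05. ARG1 status and sex were the terms of the main comparison, and effects within a sex, between the sexes and their difference came from a fit of the 4 group means. Where a gene was near 0 in a group, ratios of summed counts carry exact 95% intervals, which cover counting error only, since reads carry no molecular identifiers. A gene outside the filter was tested by exact permutation within the sexes. Log2 CPM used a prior count of 2. The fits were tested on simulated data.

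The members, the gene lists and the tests were chosen with earlier results of these data known. Named genes are the members, up to 4 genes with the smallest p among those called in each list (or its most abundant gene where none was called), and the 3 genes most like *Cd274* and *Havcr2*. Genes outside this rule, such as *Arg1*, *Cdh23*, *Siglece* and *Cd33*, were chosen after their values were seen. Alternatives were DESeq2 size factors, no filter, at least 10 counts in every library, DESeq2 1.42.0 (Wald test), ARG1 status alone, a term for libraries numbered 13 to 16, log2 CPM in the permutation test, and each library left out.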

Additional observations from a re-analysis of the deposited data

Results flagged for a closer look

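Among the 15 groups of 6 libraries with any spread in a member's level, 3 had 1 library far from the others by Dixon's test. For values of a normal distribution about 1 in 20 is flagged by chance. That rate does not hold for levels near 0, as for *Pdcd1lg2* and *Cd40*, so it cannot be set against these 3 flags. *Pdcd1lg2* had 0.740 CPM in ARG1+ female 15 and at most 0.0420 CPM in the other ARG1+ libraries. *Cd86* had 956 CPM in ARG1- male 14 and at most 710 CPM in the other ARG1- libraries. *Cd40* had 1.32 CPM in ARG1- female 2 and 0 in the other ARG1- libraries, so any level above 0 would have been flagged there.

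The ARG1 effect differed between females and males at an unadjusted p under 0.05 for *Cd274* (log2 difference of 8.71) and *Vsir* (-0.43), and neither passed edgeR's adjustment over all genes (adjusted p = 0.146 and 0.465). For *Cd274* all 3 ARG1+ female libraries were above all 3 ARG1- female libraries while the males overlapped, and for *Vsir* all ARG1+ libraries were below all ARG1- libraries in both sexes. Of all genes tested, 9.32% had an unadjusted p under 0.05 for this difference by edgeR. What lies behind the fitted values of these genes was not tested.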

How the results depend on the processing

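Over the 6 alternative fits and the 12 fits without 1 library, no fold change that was followed reversed its sign. Members called in ARG1+ against ARG1- microglia, 1 higher and 1 lower in the main fit, became 2 higher with DESeq2's Wald test, 0 lower with no filter on low counts, and 2 lower with ARG1 status alone or with a term for the libraries numbered 13 to 16. DESeq2's Wald test called 1 member in males and 1 for the difference between the sexes, against 0 by edgeR, and at least 10 counts in every library, which removes *Cd274* from the test, left 0 called between the sexes in ARG1- microglia. Genes called in the lists, 5 higher and 8 lower in the main fit, were 3 higher and 3 lower with no filter, 2 higher with at least 10 counts in every library, and 3 higher with the term for libraries 13 to 16. With 1 library left out, members called ranged from 1 to 2 higher and from 0 to 2 lower, from 1 to 3 in females, from 0 to 0 in males, from 0 to 1 for the difference between the sexes, from 0 to 1 between the sexes in ARG1- and from 0 to 0 in ARG1+ microglia, and list genes from 1 to 5 higher and from 3 to 9 lower. No paired analysis was possible because the groups share no library numbers. The permutation test of *Pdcd1lg2* cannot go below 0.5 on either scale and says nothing of stability. With 3 libraries a group, effects within a sex have wide errors, and levels at or under 3 counts, as for *Pdcd1lg2* and *Cd40* in most libraries, cannot be ranked at this depth.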

Other observations

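Transcripts of some costimulatory and inhibitory receptors of T cells were present in libraries in which *Cd3e*, *Cd3d* and *Cd3g* were at 0. Of the other T cell markers, *Trac*, *Cd2* and *Lck* had 26, 16 and 40 counts over all libraries. The part of T cells in these transcripts was not tested, and the genes given here were chosen after their values were seen. *Lag3*, an inhibitory receptor that binds MHC class II, was at 18.9 ± 4.01 CPM in ARG1- and 23.5 ± 7.63 CPM in ARG1+ microglia (SD, n = 6; adjusted p = 0.475 by edgeR). *Icos*, a relative of CD28, was at 9.67 ± 3.82 and 13.5 ± 3.62 CPM (adjusted p = 0.305), and its ligand gene *Icosl* was at 66.6 ± 18.1 and 69.7 ± 16.1 CPM (adjusted p = 0.887). *Cmtm6*, whose protein holds PD-L1 at the cell surface, was at 1919 ± 257 and 2101 ± 268 CPM (adjusted p = 0.469), with at least 1552 CPM in every library, also in those where *Cd274* was at 0.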
